A study of Mus musculus with 6 samples.

Results

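The DEAD and DEAH box genes encode enzymes that use ATP to unwind RNA or to strip proteins from it. They were taken here as every gene of the deposited table whose symbol begins with Ddx or Dhx and a digit, which gave 51 of 14379 genes. RNA-seq had been done on polyA RNA of FACS-isolated CD4+ T cells of WT B6 mice, taken from lymph nodes and spleen, in 3 libraries of naive cells at day 0 and in 3 libraries of cells activated in culture with anti-CD3/anti-CD28 for 48 hours (day 2). No library held unstimulated cells kept in culture, so the effect of activation cannot be told apart from that of culture itself. The deposited values lie on a log2 scale under column heads that name FPKM, a unit that corrects for gene length, and the sheet is named for ComBat, a batch correction. In each library 688 to 923 genes share a base value of 1.99 on this scale, and some values lie below it. With no read counts deposited, the depth of the libraries is unknown. Levels below are deposited log2 values, and a log2 fold change is the activated mean minus the naive mean on that scale, which understates the change of genes near the base value.

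Each helicase is recruited to its own RNA. Many DEAD box enzymes act in ribosome assembly in the nucleolus, where they release small nucleolar RNAs and remodel precursors of ribosomal RNA. Several DEAH enzymes drive steps of the spliceosome, and further members export mRNA, start or silence its translation, or sense viral RNA in the cytosol. A T cell leaving quiescence enlarges its nucleolus and makes ribosomes before it divides, and the nucleolar members were therefore set against the others. From general knowledge 16 members were listed as nucleolar and the other 35 were grouped by their main role.

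Several features of the libraries bear on what follows. Naive replicates 1 and 2 shared 352 identical values away from the base value and activated replicates 2 and 3 shared 670, whereas no other pair within a group shared any. The main fit treated the libraries of these pairs as independent. Averaging each of these pairs, an alternative chosen after the data were seen, gave 18 helicases that rose and 6 that fell. In that fit 3324 of the 10173 genes tested rose and 2172 fell. Naive replicate 3 and activated replicate 1 differed most from their groups. In activated replicate 1 the median nucleolar helicase exceeded the mean of activated replicates 2 and 3 by 0.39 on the log2 scale, the other helicases did so by a median of 0.30 and all genes tested by a median of 0.17. In naive replicate 3 these medians were 0.17, 0.09 and 0.01. Without both libraries 13 helicases rose and 6 fell, as did 2850 and 2304 of the 10173 genes tested.

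Y-linked genes separated the groups as well. The summed linear level above base of the 5 Y-linked protein-coding genes of the table was 2.15 to 3.93 in naive and 119 to 136 in activated libraries. The labels do not give the sex of the mice, so activation cannot be told apart from a difference in the sex of the donor mice, for *Ddx3y* or for any other gene that differs by sex.

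As for the cell type, all 6 T cell markers were abundant and all 6 fell with activation, where 21.6% of all genes tested fell. The 4 B cell markers stayed between 1.73 and 4.10. Their summed linear level above base was 7.23 to 31.1 in naive and 8.89 to 15.3 in activated libraries. Among naive libraries, replicate 2 was the highest for each B cell marker and for both CD8 markers. The 4 markers of myeloid cells had a summed linear level above base of 16.6 to 48.1 in naive and 4.49 to 9.08 in activated libraries, and the 2 CD8 markers had one of 49.5 to 75.2 and 6.78 to 10.5. In naive libraries *Lyz2* was between 4.19 and 5.57 and *Cd8b1* between 5.70 and 6.21. The other markers of these lists, *Csf1r*, *Itgam*, *Adgre1* and *Cd8a*, were between 1.99 and 3.16 there. In bulk samples, fewer cells of a type and less RNA per cell cannot be told apart.

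Of the 51 helicase genes, 49 passed the filter on low values, which asked that 3 or more libraries lie 1 or more linear units over the base value. *Ddx4* and *Ddx25*, both known for germ cells, lay between 1.94 and 2.12 in the 6 libraries and were not tested. *Ddx43*, another gene of the germ line, passed but stayed between 2.39 and 2.53. RIG-I and Ddx39a were not analysed here. One tested member, *Ddx3y*, passed through the activated libraries alone. Calls needed a change of 1.5-fold or more and an adjusted p under 0.05 (limma, Benjamini-Hochberg over 10173 genes), and SE below is the standard error of a log2 fold change. By this rule 16 helicases rose, 6 fell and 27 did not pass. Of all genes tested, 52.8% were called in either direction. The share of helicases that rose, 32.7%, was close to the 31.2% of all genes tested, and the share that fell was 12.2% against 21.6%. Both lie near or under the background, so the counts over the whole family are no result about helicases, and what follows describes which members moved. The counts depended on scaling. Under upper-quartile scaling 9 helicases rose and 8 fell, as did 2601 and 2735 of the 10173 genes. Of the called genes 48.7% were then higher, against 59.1% of those called on the deposited values.

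**Figure D1:**
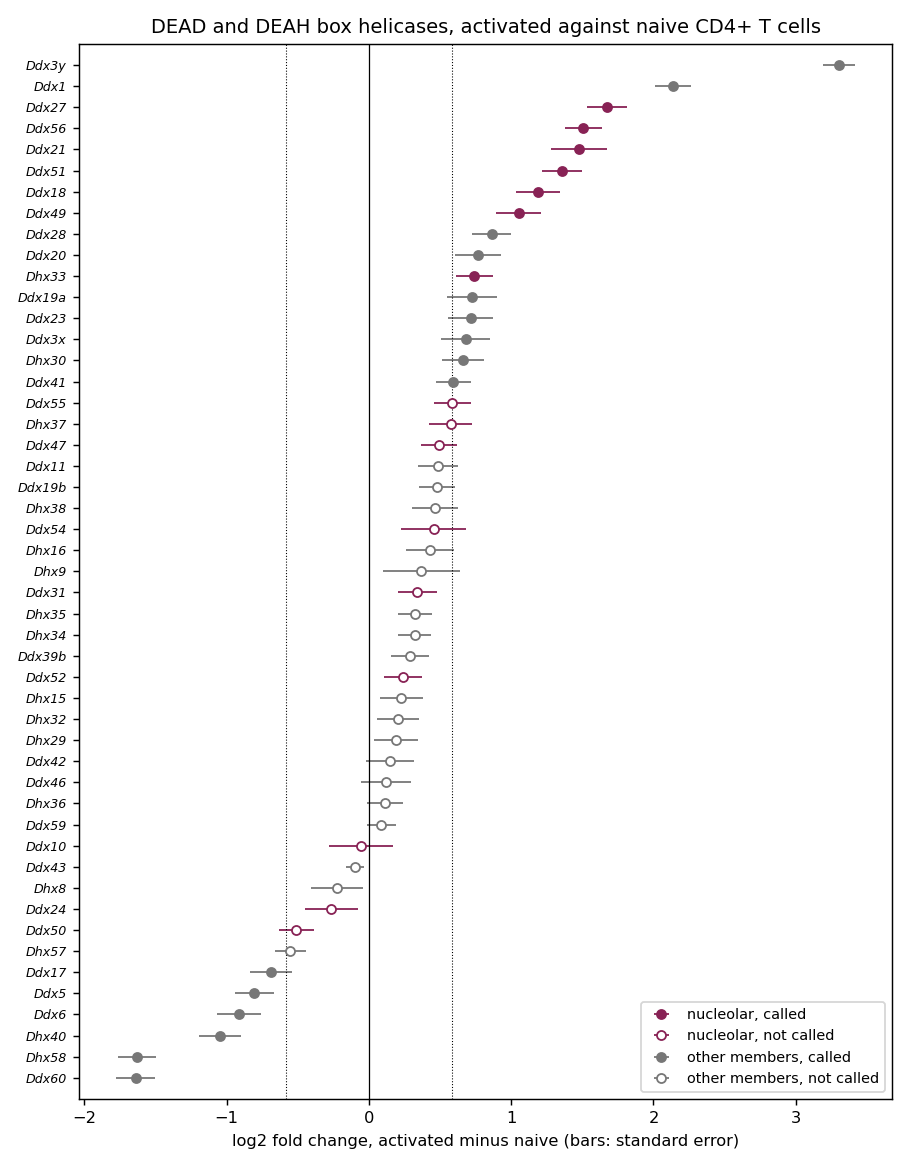
Log2 fold change of each of the 49 tested helicases (activated minus naive, 3 libraries each), with the standard error as bars. Filled points were called, open points were not, and dotted lines mark 1.5-fold. Nucleolar members reach from -0.51 (*Ddx50*) to 1.68 (*Ddx27*), and the other members from -1.64 (*Ddx60*) to 3.31 (*Ddx3y*).

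Among the 16 nucleolar helicases, all of which were tested, 7 rose, 0 fell and 9 did not pass in limma. A single one, *Ddx50*, was lower at an adjusted p under 0.05, but by less than 1.5-fold. The 43.8% that rose can be read against the 31.2% of all genes. The median log2 fold change was 0.58 for the nucleolar members, 0.29 for the other 33 tested members, 0.26 for these without *Ddx3y*, and 0.13 for all genes tested. In 12 of the 16 the lowest activated library exceeded the highest naive library, which was so for 43.9% of all genes tested. The 9 that did not pass included 4 that were higher at an adjusted p under 0.05 but by less than 1.5-fold. When the fold was disregarded, 11 of the 16 were thus higher and 1 was lower. Of all 10173 genes tested, 4192 were then higher and 3201 lower. No test between the nucleolar and the other members was made, because genes are not replicates of a condition.

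The highest nucleolar change was in *Ddx27*, which encodes the relative of yeast Drs1 that helps to build the large ribosomal subunit. The gene occupies bases 167015193 to 167034947 of chromosome 2 (GRCm38/mm10). Its log2 level was 5.40, 5.42 and 5.40 in naive replicates 1, 2 and 3, and 7.34, 6.95 and 6.96 in activated replicates 1, 2 and 3. The naive libraries were nearly equal and every activated library was far above them, which made a log2 fold change of 1.68 (SE 0.14, limma adjusted p = 6.4e-06).

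*Ddx56*, whose product takes part in assembly of the large subunit, had log2 levels of 4.64, 4.59 and 4.52 in naive and 6.26, 6.01 and 6.01 in activated libraries. Its log2 fold change was 1.51 (SE 0.13). *Ddx21* encodes a nucleolar helicase that acts in transcription of ribosomal RNA genes and in release of small nucleolar RNAs. It had log2 levels of 6.09, 6.02 and 6.43 in naive libraries, and in activated libraries it reached 8.07, 7.46 and 7.44, the highest nucleolar level of the family. The difference of 1.48 (SE 0.20, limma adjusted p = 1.2e-04) remained called in each of 17 alternative fits at the same thresholds.

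Next came *Ddx51*, the relative of yeast Dbp6, which is needed early in large subunit assembly. It was among the weakest nucleolar members before activation, at log2 levels of 3.34, 3.27 and 3.10, and it stood at 4.81, 4.42 and 4.55 after it. The log2 fold change was 1.36 (SE 0.14). *Ddx18*, the relative of yeast Has1, had log2 levels of 6.15, 6.18 and 6.35 in naive and of 7.71, 7.26 and 7.28 in activated libraries, which gave 1.19 (SE 0.16). None of these 5 genes, which were picked from those called, overlapped between the groups. Every activated library lay above every naive library for 43.9% of all genes tested.

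The remaining nucleolar genes that rose were *Ddx49*, the relative of yeast Dbp8 in small subunit assembly, by 1.05 on the log2 scale, and *Dhx33*, a DEAH protein that takes part in transcription of ribosomal RNA genes, by 0.74. *Ddx49* shares 29.8% of its exon bases with *Homer3* on the opposite strand (log2 fold change 0.12), and whether the counting used the strand was not stated in the sources read. The call of *Dhx33* was lost under upper-quartile scaling, whereas the other 6 were called in all 17 alternative fits.

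Of the 9 nucleolar members that were not called, *Ddx55* and *Dhx37* lay on the threshold of fold change itself. *Ddx55*, the relative of yeast Spb4, had log2 levels of 3.71, 3.62 and 3.51 in naive and 4.39, 4.15 and 4.06 in activated libraries, a 1.50-fold difference just short of the threshold (log2 fold change 0.58, limma adjusted p = 0.0027). For *Dhx37*, the relative of yeast Dhr1 that frees the U3 RNA from the small subunit, they were 3.80, 3.60 and 3.79 in naive against 4.60, 4.16 and 4.17 in activated libraries (log2 fold change 0.58). Each was called higher in 7 of the 17 alternative fits.

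*Ddx47*, the relative of yeast Rrp3, had log2 levels of 6.37, 6.40 and 6.55 in naive and 7.05, 6.85 and 6.88 in activated libraries, with a log2 fold change of 0.49 that was 0.06 under quantile normalization and 0.26 under upper-quartile scaling. *Ddx31*, the relative of yeast Dbp7, had 3.75, 3.67 and 3.74 in naive and 4.32, 3.97 and 3.89 in activated libraries (log2 fold change 0.34). For *Ddx31* the value was 0.21 without activated replicate 1 and 0.17 under upper-quartile scaling. Neither *Ddx47* nor *Ddx31* overlapped between the groups, and neither reached 1.5-fold.

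*Ddx54*, the relative of yeast Dbp10, had log2 levels of 4.95, 5.15 and 5.22 in naive and of 6.13, 5.21 and 5.34 in activated libraries. Its groups overlapped and its difference rested on activated replicate 1, since the log2 fold change was 0.45 with all libraries and 0.17 without that one. *Ddx54* also shares 14.2% of its exon bases with an antisense gene. *Ddx52*, the relative of yeast Rok1, had log2 levels of 5.94, 5.91 and 6.25 in naive and 6.28, 6.29 and 6.26 in activated libraries, so that naive replicate 3 already stood at the activated level.

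A further 3 nucleolar genes had negative log2 fold changes. *Ddx10*, the relative of yeast Dbp4, had log2 levels of 5.50, 5.41 and 6.23 in naive and 5.93, 5.60 and 5.45 in activated libraries. The value of -0.05 was positive, at 0.20, without naive replicate 3. *Ddx24*, the relative of yeast Mak5, had 5.56, 5.61 and 5.98 in naive and 5.81, 5.23 and 5.31 in activated libraries (log2 fold change -0.26), and the value was -0.13 without naive replicate 3, -0.16 without activated replicate 2, -0.44 without activated replicate 1, -0.48 under upper-quartile scaling and -0.52 under quantile normalization. Both genes overlapped between the groups, and *Ddx50*, described with its paralog, did not.

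**Figure D2:**
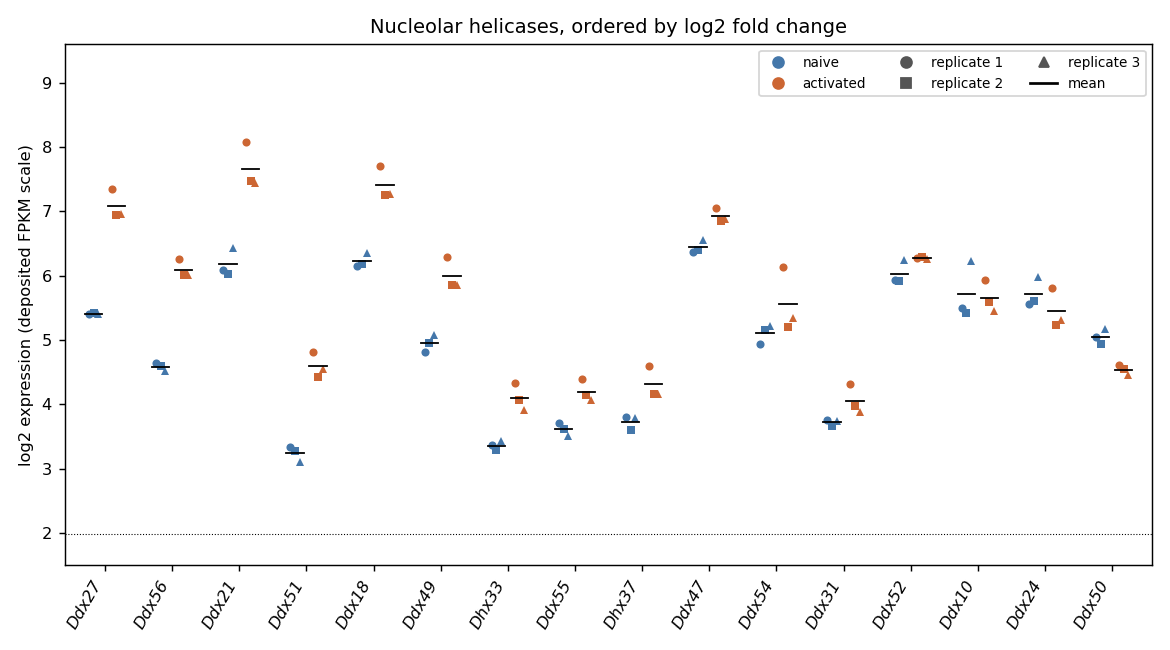
Log2 level of the 16 nucleolar helicases in each library, with naive libraries in blue, activated libraries in orange, a symbol for each replicate number and a bar at the mean of 3. The dotted line is the base value of 1.99. Activated replicate 1 (orange circles) is the highest activated library for 15 of the 16 genes, and *Ddx10* in naive replicate 3 stands at 6.23.

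The levels of the helicases, which are given per length, spanned a wide range. *Ddx5*, a coregulator of transcription and splicing, was the highest member in both states. Next were *Ddx39b*, an mRNA export factor, and *Ddx3x*, which helps mRNAs with structured leaders to be translated. After activation *Ddx21*, *Ddx1* and *Ddx18* followed as rank 4, 5 and 6, having been rank 8, 16 and 7 in naive cells. The mean log2 levels of *Ddx5* and *Ddx39b* in activated cells were close, at 8.31 and 8.23. *Ddx5* was the higher in each activated library, at 8.50 against 8.41, 8.24 against 8.19 and 8.20 against 8.10. Those of *Ddx21* and *Ddx1* were 7.66 and 7.66, and their order changed between libraries. *Ddx21* was the higher in activated replicate 1 (8.07 against 7.80). It was the lower in replicates 2 (7.46 against 7.64) and 3 (7.44 against 7.52).

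Summed on the linear scale above the base value, the nucleolar helicases made up 22.9%, 24.4% and 25.4% of the level of the whole family in naive replicates 1, 2 and 3. In activated libraries they made up 35.6%, 33.7% and 35.0%. *Ddx5* alone accounted for 24.4%, 23.7% and 22.7% in naive and for 10.1%, 10.7% and 10.8% in activated libraries. The groups did not overlap in either share. The family sum itself was 2324, 2174 and 2528 linear units in naive and 3558, 2794 and 2688 in activated libraries.

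**Figure D3:**
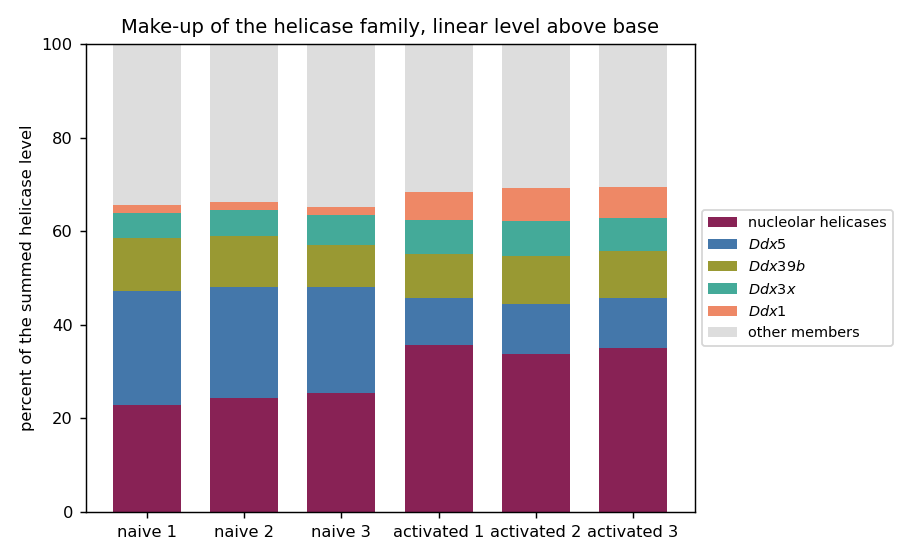
Make-up of the helicase family in each library, as the percent of the summed linear level above the base value of the 51 genes. Nucleolar helicases take 22.9% to 25.4% in naive and 33.7% to 35.6% in activated libraries, while *Ddx5* goes from 22.7% to 24.4% down to 10.1% to 10.8%.

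Outside the nucleolar list, 9 helicases rose (27.3%, against 31.2% of all genes), 6 fell (18.2%, against 21.6%) and 18 did not pass, so that both shares were near or under the background. Without *Ddx3y*, which passed the filter through the activated libraries alone, 8 rose (25%) and 6 fell (18.8%). *Ddx1* encodes a subunit of the tRNA ligase complex, which joins the exons of spliced tRNAs, and it lies on chromosome 12 from 13216973 to 13249213. Its log2 level was 5.51, 5.46 and 5.58 in naive libraries and 7.80, 7.64 and 7.52 in activated libraries. This was a clear separation with little spread inside either group (log2 fold change 2.14, SE 0.13, limma adjusted p = 8.2e-07), and it was called in each of the 17 alternative fits.

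*Ddx3y* had the highest log2 fold change of the family, 3.31 (SE 0.12). This gene of the Y chromosome (1260771 to 1286629) had log2 levels of 2.22, 2.03 and 2.02 in naive libraries, next to the base value, and of 5.34, 5.49 and 5.36 in activated libraries. Because naive cells barely exceeded the base value, no linear fold is given. The other Y-linked protein-coding genes of the table were looked up after this was seen. *Eif2s3y* was between 1.95 and 2.05 in naive and between 6.19 and 6.41 in activated libraries, *Uty* between 2.12 and 2.28 and between 3.17 and 3.30, and *Kdm5d* between 2.46 and 2.62 and between 3.54 and 3.64. *Gm20809* stood at the base value in all 6. The 4 genes with any expression were thus low in every naive library and higher in every activated library.

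*Ddx3x*, the partner of *Ddx3y* on the X chromosome, had log2 levels of 6.99, 6.93 and 7.38 in naive and of 8.02, 7.75 and 7.56 in activated libraries. It was called higher (log2 fold change 0.68), but the call was lost under each of the 3 other scalings (quantile, upper-quartile, median-of-ratios) and without activated replicate 1 (0.56). The sex of the donor mice may bear on this X-linked gene as well, which was not tested.

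Both mitochondrial members rose, as did 31.2% of all genes. *Ddx28*, which acts in assembly of the mitochondrial ribosome, had log2 levels of 3.96, 4.03 and 3.89 in naive and of 5.0, 4.61 and 4.88 in activated libraries (log2 fold change 0.86, standard error 0.14). *Dhx30*, found in the granules where mitochondrial RNA is handled, rose by 0.66. Its call was lost under median-of-ratios and upper-quartile scaling, without activated replicate 1, and without both naive replicate 3 and activated replicate 1. *Ddx28* shares 3.18% of its exon bases with *Dus2* on the opposite strand, whose log2 fold change was 1.40.

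*Ddx20*, also known as Gemin3 of the complex that loads Sm proteins on small nuclear RNAs, had log2 levels of 4.33, 4.31 and 4.72 in naive and of 5.44, 5.16 and 5.04 in activated libraries. The groups did not overlap (log2 fold change 0.77), but under upper-quartile scaling *Ddx20* was not called.

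Of the 9 spliceosome helicases, *Ddx23* and *Ddx41* rose, by 0.72 and 0.59 on the log2 scale (22.2%, against 31.2% of all genes), and 7 did not pass. *Ddx23* is the helicase of the U5 particle, and *Ddx41* encodes a component of assembled spliceosomes. The call of *Ddx41* was lost in 6 of the 17 alternative fits, among them each of the 3 other scalings and those without naive replicate 3 or activated replicate 1. That of *Ddx23* was lost in 4, among them quantile and upper-quartile scaling and the fit without activated replicate 1. *Ddx41* shares 17.4% of its exon bases with an antisense gene. The DEAH enzymes that drive splicing in sequence, *Dhx16*, *Dhx38*, *Dhx8* and *Dhx15*, had log2 fold changes of 0.43, 0.46, -0.23 and 0.23. *Dhx35*, *Ddx42* and *Ddx46* had 0.32, 0.15 and 0.12. The range of this group was -0.23 to 0.72.

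When the family was divided by symbol, a division made after the values were seen, 14 of 33 tested Ddx genes (42.4%) and 2 of 16 Dhx genes (12.5%) rose, against 31.2% of all genes. Fallen genes were 4 of 33 (12.1%) and 2 of 16 (12.5%), against 21.6%. The Ddx genes that rose include *Ddx3y*, which passed the filter through the activated libraries alone.

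**Figure D4:**
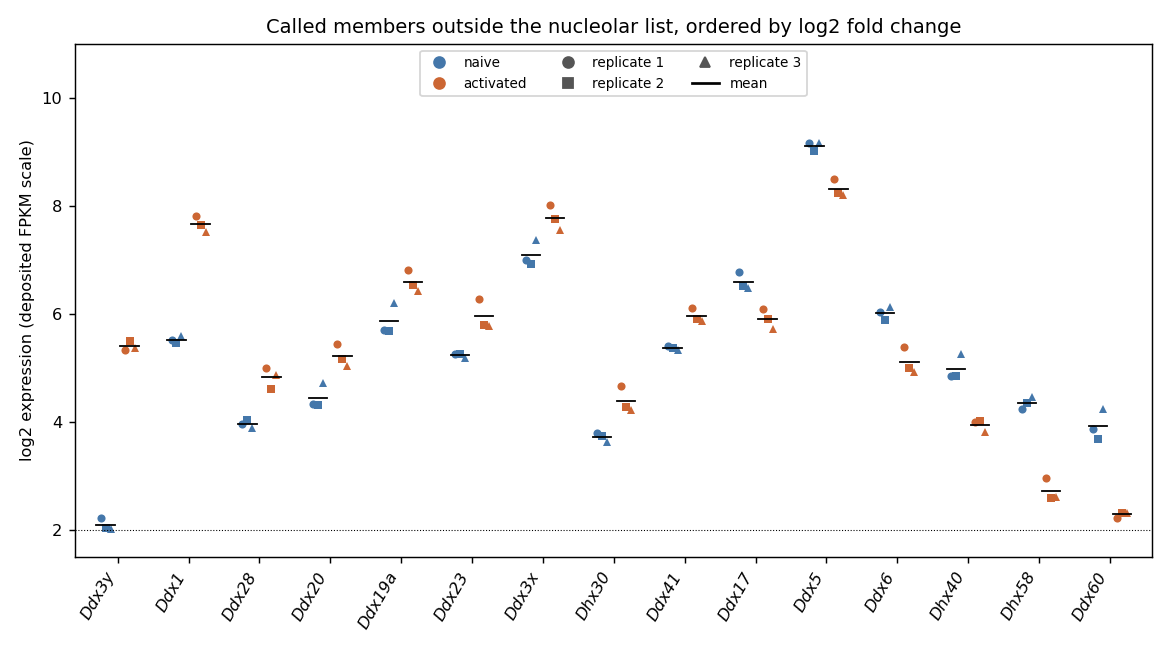
Log2 level of the 15 called helicases outside the nucleolar list in each library, ordered by log2 fold change, with colors, symbols and the dotted base value as in the plot of nucleolar levels. *Ddx3y* sits just above the base value in naive libraries, and *Ddx60* reaches 2.23 to 2.32 in activated libraries. None of the 15, all chosen because they were called, overlaps between the groups. Of all genes tested, 43.9% had every activated library above every naive library, and 32.9% had the reverse.

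The 2 members that fell the most, *Ddx60* and *Dhx58*, were the 2 tested members listed as sensors of viral RNA, where 21.6% of all genes fell. Each member was listed under a single main role, so these 2 do not stand for every helicase that may sense such RNA. *Ddx60*, an interferon-induced antiviral gene, had log2 levels of 3.86, 3.69 and 4.23 in naive and of 2.23, 2.32 and 2.31 in activated libraries. *Dhx58* encodes LGP2, a member of the RIG-I family that lacks signaling domains. Its log2 levels were 4.25, 4.36 and 4.45 in naive and 2.97, 2.60 and 2.60 in activated libraries. *Ddx60* fell by 1.64 on the log2 scale (SE 0.14) and *Dhx58* fell by 1.63 (SE 0.13), each with an adjusted p under the threshold in all 17 alternative fits. Both ended near the base value, which understates their change. With a pseudocount of 0.5 on values above the base, the log2 fold changes were -3.06 for *Ddx60* and -2.46 for *Dhx58*. MDA5, the sensor encoded by *Ifih1*, is related to LGP2 but lies outside the symbol rule, and it was named after its values were seen. *Ifih1* had log2 levels of 3.63, 3.55 and 4.20 in naive and of 4.21, 4.52 and 4.49 in activated libraries and was called higher (log2 fold change 0.61). Of the myeloid and CD8 markers given above, *Lyz2* and *Cd8b1* were called lower, with log2 fold changes of -1.86 and -2.34. *Itgam* was not called, and *Csf1r*, *Adgre1* and *Cd8a* did not pass the filter. *Adgre1* was slightly higher in activated libraries (2.18 to 2.25) than in naive ones (1.99 to 2.14). The part of such cells in the fall of *Ddx60* and *Dhx58* was not tested.

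Because *Ddx60* is known to respond to interferon, the promoters of the helicases were searched for GAAA followed by any 2 bases and GAAA again, the core of the element that binds interferon-activated factors. This search was added after the fall was seen. Promoters came from RefSeq (GRCm38.p6), from 250 bases before to 50 after each gene's start, and 46 of the 51 members had at least 1. On both strands, 3.44% of all promoters and 3.34% of those of the genes tested held the motif, and among helicases it was found for *Ddx60* and for *Ddx49*. The promoter of *Dhx58* was not used here. The stretches that hold it are shown with the motif in capitals, for *Ddx60* at chr8:61928017-61928086 (plus strand, the 70 bases before the start) and for *Ddx49* at chr8:70302667-70302716 (minus strand, a stretch of 50 bases upstream of the start).
Ddx60: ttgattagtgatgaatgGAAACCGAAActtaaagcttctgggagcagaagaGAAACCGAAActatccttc
Ddx49: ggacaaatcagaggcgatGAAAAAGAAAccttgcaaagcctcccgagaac
*Ddx60* carries the motif at -53 and again at -19, and *Ddx49*, which rose, carries it at -227 (or -246 from its other listed start). These are matches of letters and not shown to be sites.

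The E-box CACGTG, which binds Myc among other factors, was searched in the same promoters, since Myc is known to drive ribosome assembly genes. It reads the same on both strands. It was present in 7.15% of all promoters, in 10.2% of those of the genes tested, in 1 of 18 promoters of nucleolar helicases (5.56%) and in 6 of 39 promoters of the other members (15.4%). The nucleolar gene was *Dhx33*. The other members were *Dhx35*, *Ddx25*, *Dhx40*, *Ddx42*, *Ddx5* and *Ddx4*, of which *Ddx25* and *Ddx4* did not pass the filter. *Dhx40* is shown beside *Dhx33* because it holds the same letters and moved the other way. *Ddx5*, which also fell, has the motif at -30. The stretch of *Dhx33* is chr11:71004443-71004492 and that of *Dhx40* is chr11:86807756-86807805, both on the minus strand and with the motif in capitals.
Dhx33: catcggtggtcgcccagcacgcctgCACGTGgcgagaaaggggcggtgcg
Dhx40: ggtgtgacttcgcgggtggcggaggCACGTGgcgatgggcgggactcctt
*Dhx33* has the motif at -35 and *Dhx40* has it at -120. For the other 15 nucleolar genes these letters are not in this window.

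*Dhx40*, a DEAH gene whose role is less settled, had log2 levels of 4.85, 4.85 and 5.25 in naive and of 3.99, 4.01 and 3.80 in activated libraries, and it fell by 1.05 on the log2 scale (SE 0.15, limma adjusted p = 1.6e-04). *Ddx6*, which represses translation and promotes decay of mRNA in P bodies, had log2 levels of 6.03, 5.89 and 6.13 in naive and of 5.38, 5.0 and 4.92 in activated libraries, and fell by 0.91 (SE 0.15). *Dhx57* did not pass, with a log2 fold change of -0.55, but was called lower in 5 of the 17 alternative fits. Of the 6 cytoplasmic mRNA helicases, 2 rose (*Ddx3x* and *Ddx3y*, 33.3% against 31.2% of all genes), 1 fell (*Ddx6*, 16.7% against 21.6%) and 3 did not pass. However, *Ddx3y* passed the filter through the activated libraries alone, and the call of *Ddx3x* was lost under each of the 3 other scalings. Among the 3 that did not pass, those that act on translation, *Dhx29* and *Dhx36*, had log2 fold changes of 0.19 and 0.11. *Dhx34*, which acts in nonsense-mediated decay, had one of 0.32. The remaining members that did not pass were *Ddx11*, a DNA helicase of sister chromatid cohesion, at 0.48, *Dhx9*, a nuclear helicase that unwinds RNA and DNA, at 0.37, *Dhx32* at 0.20 and *Ddx59* at 0.09.

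Finally, pairs of close relatives within the family were compared by the log2 difference between them in each library, which does not depend on scaling factors common to a library apart from the shared base value. With 3 libraries against 3, an exact two-sided permutation test cannot go below p = 0.1, and p-values were adjusted over 4 pairs.

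*Ddx21* and *Ddx50* are neighbors on the minus strand of chromosome 10, at 62580251 to 62602281 and 62615895 to 62651218, with 13613 bases between them. Both products are nucleolar. *Ddx50* had log2 levels of 5.05, 4.94 and 5.17 in naive and of 4.62, 4.55 and 4.45 in activated libraries, opposite in direction to *Ddx21*, but it did not reach 1.5-fold (log2 fold change -0.51, SE 0.12, limma adjusted p = 0.0044). It was called lower under each of the 3 other scalings. *Ddx21* exceeded *Ddx50* by 1.04, 1.08 and 1.27 on the log2 scale in naive and by 3.46, 2.91 and 2.98 in activated libraries. The gap between the neighbors thus widened by 1.99 (exact permutation test, p = 0.1, adjusted p = 0.2 over the 4 pairs), in each activated library beyond each naive library.

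*Ddx5* and *Ddx17*, which often act together as coregulators, both fell. In the group of 4 nuclear coregulator and snRNP helicases they were the 2 that fell, beside 1 that rose (*Ddx20*) and 1 that did not pass (*Dhx9*), where 21.6% of all genes fell and 31.2% rose. The log2 levels of *Ddx5* were 9.16, 9.02 and 9.17 in naive and 8.50, 8.24 and 8.20 in activated libraries, a fall by 0.81 (SE 0.13). Those of *Ddx17* were 6.78, 6.51 and 6.47 in naive and 6.08, 5.90 and 5.72 in activated libraries, a fall by 0.69 (SE 0.15). Within libraries *Ddx5* exceeded *Ddx17* by 2.53 ± 0.16 (SD, n = 3) before and by 2.41 ± 0.07 (SD, n = 3) after activation on the log2 scale, and the groups overlapped (exact permutation test, p = 0.4).

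*Ddx19a* and *Ddx19b* encode closely similar mRNA export helicases and lie 5387 bases apart on chromosome 8, so that the counting could divide their reads in more than one way. *Ddx19a* had log2 levels of 5.70, 5.69 and 6.20 in naive and of 6.80, 6.54 and 6.42 in activated libraries and rose by 0.73, a call that was lost under quantile and upper-quartile scaling. *Ddx19b* had 3.85, 3.79 and 3.91 in naive and 4.52, 4.22 and 4.24 in activated libraries, a log2 fold change of 0.48 that was not called. The difference between the genes was 2.01 ± 0.24 (SD, n = 3) before and 2.26 ± 0.07 (SD, n = 3) after activation (exact permutation test, p = 0.3). Within libraries *Ddx3x* exceeded *Ddx3y* by 5.01 ± 0.31 (SD, n = 3) before and by 2.38 ± 0.26 (SD, n = 3) after activation on the log2 scale. These values are a description only, because *Ddx3y* lay near the base value in naive cells and passed the filter through the activated libraries alone. The change of -2.63 was -4.99 with a pseudocount of 0.5 on values above the base. The export factor *Ddx39b*, with no partner analysed here, was at 8.06, 7.91 and 7.86 in naive and at 8.41, 8.19 and 8.10 in activated libraries and did not pass (log2 fold change 0.29).

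**Figure D5:**
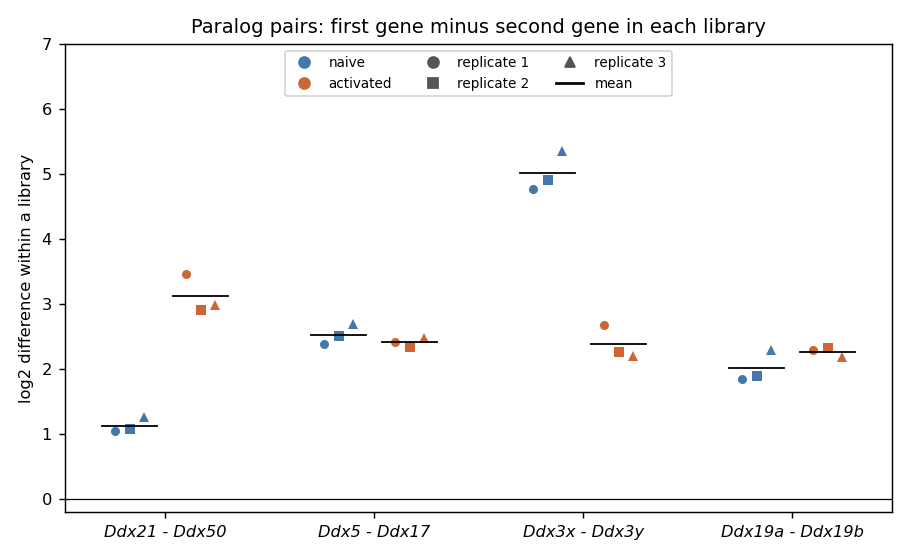
Log2 difference between the genes of each paralog pair within each library, with naive libraries in blue, activated libraries in orange, a symbol for each replicate number and a bar at the mean of 3. *Ddx21* minus *Ddx50* goes from 1.04 to 1.27 in naive to 2.91 to 3.46 in activated libraries, while *Ddx5* minus *Ddx17* stays between 2.34 and 2.70 in all 6.

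Factors of ribosome assembly that are not helicases gave a measure of the surrounding pathway. Of 69 tested genes of this list, 64 rose (92.8%, against 31.2% of all genes), 1 fell and 4 did not pass, with a median log2 fold change of 1.36. The corresponding values for the nucleolar helicases were 7 of 16 and 0.58. The highest in the list were *Rrp9*, which is part of the U3 particle, by 2.77 on the log2 scale, *Gar1* by 2.76 and *Nhp2* by 2.69, both in the particles that guide pseudouridylation, while *Nsa2* fell by 0.90.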

How the data were processed

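PolyA RNA of 3 naive and 3 activated CD4+ T cell samples was compared, with groups and replicates taken from the sample titles. The authors used HISAT2 2.0.5 for alignment to mm10, StringTie 1.3.3b for assembly and featureCounts 1.5.0-p3 for counts. The authors deposited log2 values, headed FPKM and named for ComBat, between 1.17 and 15.01, and how they made these from counts (pseudocount, batches) was not stated in the sources read. The study describes the libraries of a group as independent biological replicates. Batch correction can narrow the spread on which p-values rest. The DESeq2 test of the study was not run because the table holds no counts.

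The 10173 genes that exceeded the base value by 1 linear unit or more in 3 or more libraries were fitted with limma 3.58.1 in R 4.3.3 (mean-variance trend, no covariate), after the procedure was tested on simulated data. The rest was done in Python 3.11.15 (scipy 1.17.1, numpy 2.4.6, pandas 2.3.3), with figures by matplotlib 3.10.9. Positions and exon overlaps came from GENCODE M21, matched by symbol.

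The members, role lists, alternatives and naming rule were chosen with earlier results of these data known. Values per library are given for the 5 largest called and all uncalled nucleolar genes, the 5 largest rises and falls of the others, paralog pairs and the most abundant members. Alternatives were pseudocounts of 0.5 and 1 on values above the base, no filter, a filter of 5 units, 3 scalings, no trend, a replicate block, libraries left out, thresholds of 2-fold or none, and a wider nucleolar list. Averaging libraries with identical values and the search for paired GAAA were added after seeing the data. A gene that the naming rule picks outside the family is not reported here.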

Additional observations from a re-analysis of the deposited data

How the results depend on the processing

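The family counts were 16 higher and 6 lower, and of these 9 and 6 were called in all 17 alternative fits at the same thresholds. Under upper-quartile scaling 9 members were higher, 3 of them outside the nucleolar list, and under quantile normalization 5 outside it were higher. Of all 10173 genes tested, 2601 and 2618 were higher under these scalings. Without a fold threshold 26 of the 49 tested members were higher, 11 nucleolar and 15 others, as were 4192 of all genes tested. At 2-fold 8 were higher, 2 of them outside the nucleolar list, and 3 were lower, all outside it. At that threshold 1913 of all genes tested were higher and 1181 lower. Leaving out single libraries gave 12 to 19 higher and 6 to 7 lower members, and 5 to 9 higher members outside the nucleolar list, the lowest without activated replicate 1. Of all genes tested, 2928 to 3297 were higher and 2091 to 2372 lower in those fits. The nucleolar median exceeded that of the others by 0.29 on the log2 scale, by 0.46 and 0.43 with pseudocounts of 0.5 and 1, by 0.41 under quantile normalization and by 0.17 when *Dhx15*, *Ddx5* and *Ddx17* were counted as nucleolar. The cause of these shifts was not tested.

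Of named genes, *Ddx10* (-0.05) ranged from -0.21 to 0.20 when single libraries were left out (0.05 without activated replicate 3) and was 0.067 with both naive replicate 3 and activated replicate 1 left out, and *Ddx52* (0.24) was -0.11 under quantile normalization. No call was gained or lost with these changes of sign. Over all genes the median log2 fold change was 0.13, but 0.00 under quantile normalization and -0.04 under upper-quartile scaling, and the share of called genes that were higher was 59.1%, against 50.2% and 48.7%. Small rises thus depend on scaling. With libraries of identical values averaged, *Ddx55* and *Dhx37* were called higher and no call of a member was lost. Standard errors were larger in that fit, as for *Ddx27* (0.26 against 0.14). The uncalled *Ddx47*, *Ddx31*, *Ddx19b* and *Ddx50* had limma adjusted p-values of 0.096, 0.14, 0.061 and 0.067 there. In the main fit these were 0.0063, 0.05, 0.0074 and 0.0044. With the replicate number as a block the counts were again 16 and 6, and no call of a member changed. Deviations of same-numbered libraries correlated at -0.01, -0.05 and -0.14, and not every library correlated best with its own number. This check cannot decide whether the numbers pair the samples, because a batch correction can remove deviations that paired libraries share.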

Other observations

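RNA helicases outside the Ddx and Dhx symbols moved in both directions. Of 17 tested, 4 rose (23.5%, against 31.2% of all genes) and 4 fell (23.5%, against 21.6%). *Eif4a1*, the helicase of cap-dependent translation, had log2 levels of 8.61, 8.73 and 8.92 in naive and of 10.35, 10.22 and 10.07 in activated libraries, which made 1.46 on the log2 scale (SE of the change 0.14, limma adjusted p = 1.5e-05). *Supv3l1*, a helicase of mitochondrial RNA decay, rose by 1.39 and *Eif4a3*, the core of the exon junction complex, rose by 0.87. *Mov10* fell by 1.09 and *Helz2* by 1.05. *Znfx1*, named after its values were seen, fell by 0.87. Each of these 6 genes, picked for its change, kept the naive and activated libraries apart. Of all genes tested, 43.9% had every activated library above every naive library, and 32.9% had the reverse.

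Proteins listed as cofactors of helicases were counted as well, though not every one is known to set the activity of a helicase. Of 29 tested cofactors, 10 rose (34.5%, against 31.2% of all genes) and 4 fell (13.8%, against 21.6%), so that neither share exceeds the background by much. *Gpatch4*, a nucleolar protein with the G-patch that activates DEAH enzymes, had log2 levels of 4.78, 4.68 and 4.36 in naive and of 6.83, 6.74 and 6.70 in activated libraries, and rose by 2.15 (SE 0.14). *Bysl* rose by 1.50 and *Pinx1*, another G-patch protein, by 1.16. The G-patch gene *Gpatch11* fell by 0.94, *Eif4g3* by 1.05 and the splicing regulator *Rbm5* by 0.86.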
